A study of Mus musculus with 24 samples.

Results

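The genes described here are the amino acid transporters of 6 solute carrier families, measured in mouse epithelial lines and macrophages with and without an inflammatory supernatant. They were chosen by symbol: every gene with a probe set of exactly 1 platform symbol beginning with Slc1a, Slc3a, Slc7a, Slc36a, Slc38a or Slc43a, except Slc7a2, with the probe set of the highest mean standing for the gene. This gave 42 of the 19938 genes measured. Of these, 41 are carriers or carrier subunits, and Slc7a6os, which lies on the strand opposite Slc7a6, was matched by its name alone. The rule used no measured value other than the mean that picks a probe set.

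RNA was measured on 24 arrays, 4 for each of 6 groups. The line C57epi.1 was derived from upper reproductive tract epithelium of C57BL/6 mice. Epithelium of that tract in B6(C)-H2-Ab1bm12/KhEgJ mice, which have an altered class II MHC gene, gave the line Bm12.4. Macrophages were grown from C57BL/6 femur bone marrow with GM-CSF, so they are a cultured primary population, while each line is a single established line. Each kind of cell was kept in RPMI medium with 10% serum and 2-mercaptoethanol (media), or given the supernatant. That supernatant was conditioned medium, used at 33% by volume, from cultures of a CD4 T cell clone specific for Chlamydia together with infected epithelial cells, and its interferon-gamma was set to 4 ng/ml. The labels do not say that the 4 replicates were separate cultures, so every p-value below reflects the spread among these arrays alone, which could be technical.

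Cells import amino acids through carriers that differ in the substrate they take and in what drives them. Slc3a2, the CD98 heavy chain, carries its partners to the cell surface, and these Slc7 light chains do the transport: Slc7a5 and Slc7a8 exchange large neutral amino acids, Slc7a6 and Slc7a7 exchange cationic for neutral ones, and Slc7a11 (xCT) takes up cystine in exchange for glutamate and so feeds glutathione synthesis. Slc7a1 takes up arginine and lysine, Slc1a5 and Slc1a4 exchange small neutral amino acids, Slc1a3 takes up glutamate, and Slc38 carriers use the sodium gradient for glutamine and alanine. Slc36a1 and Slc36a2 are driven by protons, and Slc36a1, Slc38a7 and Slc38a9 are found on lysosomes. There Slc38a9 also takes part in amino acid sensing for mTORC1. Several of these genes, among them Slc7a11, Slc3a2, Slc7a5 and Slc7a1, are textbook targets of Atf4, the transcription factor of the amino acid and stress response, and Slc7a11 is also a target of Nrf2.

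The values are log2 levels, so a difference of 1 is 2-fold, and a level is compared only between arrays for the same gene. Array medians lay between 5.00 and 5.19, and arrays within a group correlated across genes at 0.967 to 0.9975. Of the 42 genes, 20 stayed under a mean of 6 in every group (47.6%, beside 46% of all genes). The level of 6 is a chosen cut that was not measured from detection calls. Levels under it were treated as not told from background. A log2 difference that involves a group under 6 is a difference of the measured values, and the fold beside it is a lower bound with each such group set at 6. Among these dim genes were Slc3a1, Slc7a9, Slc7a10, Slc7a12, Slc7a13, Slc38a3, Slc38a5 and Slc43a1. The cell kinds were checked with marker lists. Averaged over 10 macrophage markers, every macrophage array read between 11.52 and 11.73 and every array of the lines between 4.13 and 4.60. Averaged over 7 T cell markers, all 24 arrays read between 3.74 and 4.17, and Cd3e was at 4.62 to 5.00 in group means. In the lines Krt19 was at 11.31 to 12.12 in group means, but the epithelial markers Epcam (3.67 to 3.75) and Cdh1 (4.30 to 4.50) were low, and 8 stromal markers had median levels of 10.11 to 11.42. In each kind of cell the supernatant raised genes of the interferon response. In C57epi.1 6 of 7 measured rose (85.7% beside 8.85% of all genes). In Bm12.4 and in macrophages 7 of 7 did, beside 4.54% and 6.13% of all genes.

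**Figure D1:**
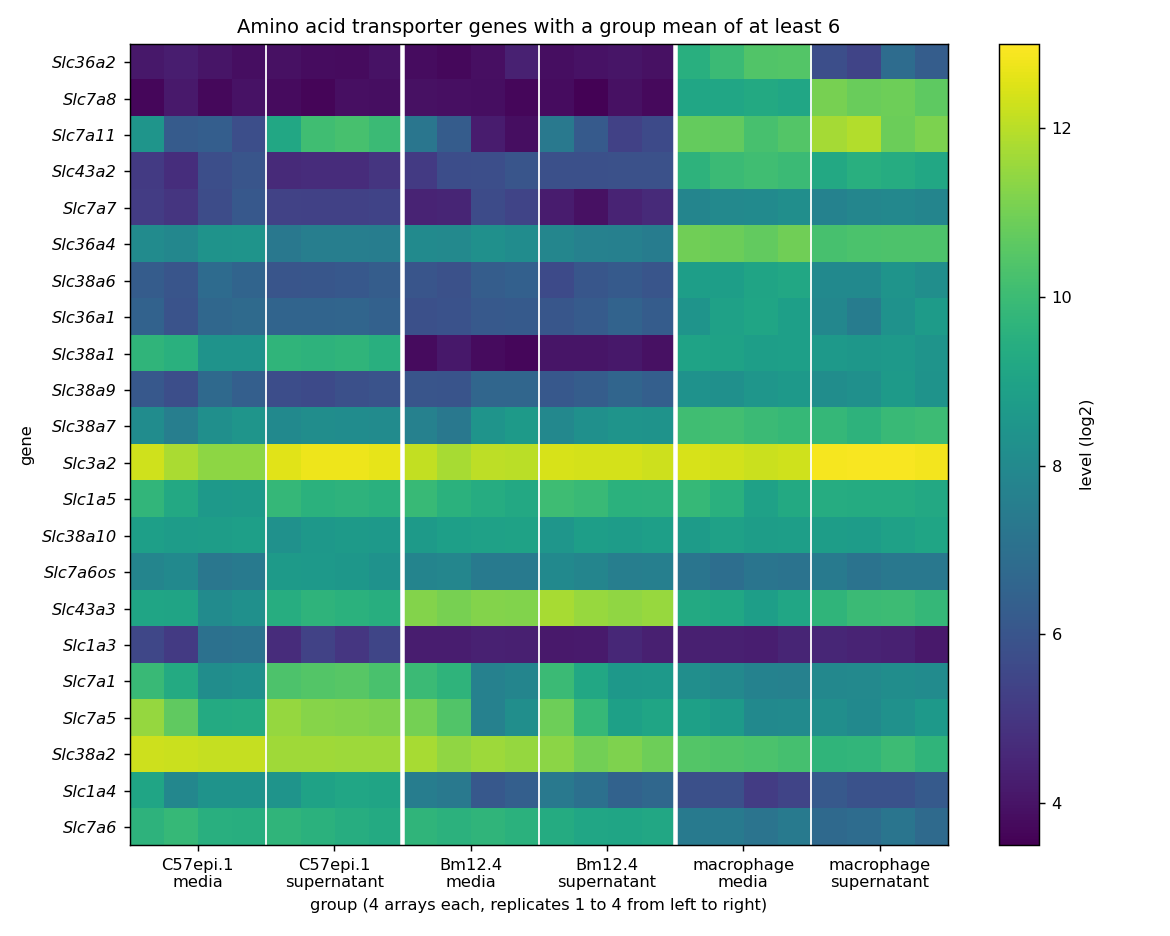
Level (log2, colour) of the 22 genes with a mean of at least 6 in at least 1 group, on all 24 arrays, ordered by the difference between macrophages and lines in media. The upper rows are bright in macrophages only or mainly, Slc38a1 is dark in Bm12.4 alone, and Slc38a2, Slc1a4 and Slc7a6 are brighter in the lines.

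With supernatant, transporter genes rose and fell in C57epi.1 and in macrophages, and the few calls in Bm12.4 were falls. In C57epi.1 Slc7a11, Slc7a1, Slc3a2, Slc43a3, Slc7a6os and Slc38a1 rose at an adjusted p under 0.05 (limma, Benjamini-Hochberg over all genes), and Slc1a3, Slc36a4, Slc43a2, Slc38a2 and Slc38a4 fell. These 6 risers are 14.3% of the 42, beside 8.85% of all genes that rose, and the 5 that fell are 11.9% beside 10.4%. In Bm12.4 Slc7a6, Slc38a2 and Slc36a4 fell, 7.14% beside 2.7% of all genes. In limma 0 rose there after adjustment, beside 4.54% of all genes, and 2 were higher at an unadjusted p under 0.05. In macrophages Slc7a8, Slc43a3, Slc3a2 and Slc1a2 rose, 9.52% beside 6.13% of all genes. Slc36a2, Slc38a6, Slc36a1, Slc36a4, Slc38a2 and Slc7a6 fell there, 14.3% beside 6.31%. The median difference over the 42 genes was -0.07 in C57epi.1 and -0.02 each in Bm12.4 and macrophages, where all genes had medians of -0.05 in both lines and -0.02 in macrophages.

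The counts in the lines depended on which arrays entered. Without C57epi.1 media replicate 3 or replicate 4 its 11 calls became 6, and without its supernatant replicate 1 they became 7. With replicates 1 and 2 alone the count was 6 in C57epi.1 and 0 in Bm12.4, and with replicates 3 and 4 alone it was 17 and 7. Other genes moved with the transporters. In C57epi.1 5 of 8 stromal markers fell (62.5% beside 10.4% of all genes), led by Pdgfra (-2.18). Array means over the list were 9.27 to 10.40 in media and 9.0 to 9.17 in supernatant. Replicates 3 and 4 minus replicates 1 and 2 had a median over the list of 1.065 in media and 0.002 in supernatant. How far these falls rest on media replicates 3 and 4 was not tested. In macrophages 4 of 9 genes of cell division fell (44.4% beside 6.31%), led by Ccna2 (-2.50). Their array means were 6.12 to 7.68 in media and 5.27 to 6.21 in supernatant. In macrophages 3 of 8 stromal markers fell too (37.5% beside 6.31%), namely Sparc (-0.89), Col1a2 (-0.64) and Col1a1 (-0.58). That list had array means of 5.80 to 5.90 in media and 5.35 to 5.62 in supernatant. In bulk samples fewer cells of a type and less RNA per cell cannot be told apart, and the part of these changes in the transporter values was not tested.

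**Figure D2:**
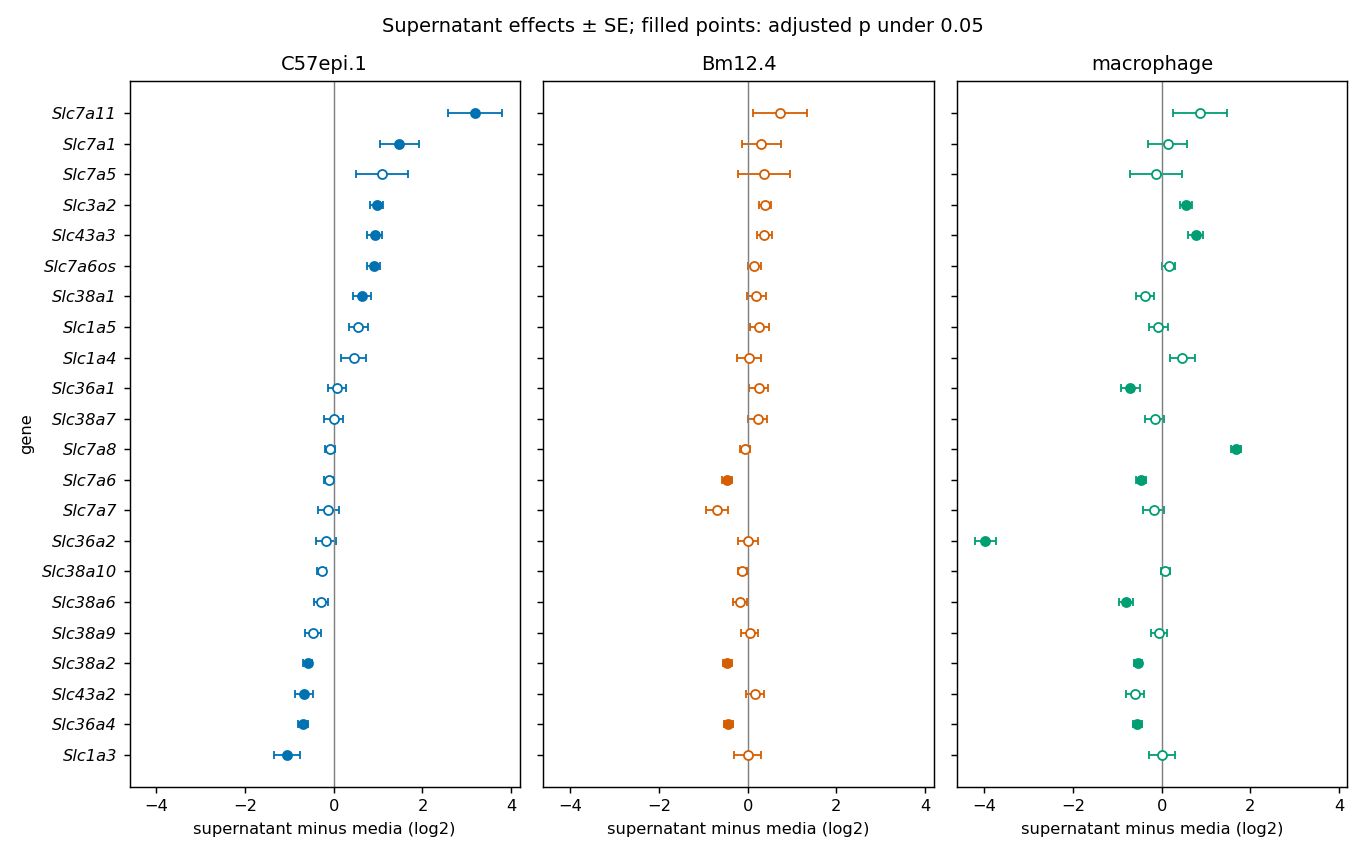
Supernatant minus media (log2) with its standard error for the 22 genes with a group mean of at least 6, in C57epi.1, Bm12.4 and macrophages; filled points passed an adjusted p under 0.05. Slc7a11 and Slc7a1 lie farthest right in C57epi.1, Slc36a2 lies at -3.98 and Slc7a8 at 1.68 in macrophages, and Slc38a2 and Slc36a4 lie left of 0 with filled points in all 3 kinds of cell.

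Slc7a11, the cystine carrier, rose most of these genes in C57epi.1. Its arrays read 8.44, 6.21, 6.34 and 5.78 in media and 9.19, 10.10, 10.22 and 9.99 in supernatant. Every treated array lay above every media array, and media replicate 1 stood well above the rest of its group. The difference was 3.18 ± 0.61 (SE; 9.08-fold; adjusted p = 0.000535), and it was 2.32 between replicates 1 and 2 alone and 4.04 between replicates 3 and 4 alone. In Bm12.4 the gene read 7.23, 6.25, 4.24 and 3.87 in media and 7.33, 6.18, 5.32 and 5.64 in supernatant. These arrays overlapped, with a difference of 0.72 ± 0.61 that did not pass (adjusted p = 0.611). In macrophages it read 10.77, 10.71, 10.25 and 10.46 in media and 11.72, 11.90, 10.87 and 11.13 in supernatant, all treated arrays above all media arrays. That difference, 0.86 ± 0.61, did not pass either (adjusted p = 0.488), with the spread of the lines entering the shared error. The test of whether the effect was larger in C57epi.1 than in Bm12.4 gave 2.46 ± 0.86 and did not pass (adjusted p = 0.122). Levels themselves differed. In supernatant C57epi.1 stood 3.76 ± 0.61 above Bm12.4 (13.5-fold, adjusted p = 3.4e-05), where Bm12.4 replicates 3 and 4 were under 6. In media macrophages stood at least 18.4-fold above the mean of both lines, of which Bm12.4 was under 6. The measured log2 difference of the lines from macrophages was -4.50 ± 0.53 (adjusted p = 1.3e-07).

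The bases before the start of Slc7a11 are shown because this gene rose most of the transporter genes in C57epi.1. Whether Atf4 or another factor took part was not tested. The stretch is the 250 bases upstream of the RefSeq start in build GRCm38.p6, chr3:50443614-50443863, on the minus strand, and capitals mark matches to the C/EBP-ATF element TGATGNAA on either strand.
Slc7a11: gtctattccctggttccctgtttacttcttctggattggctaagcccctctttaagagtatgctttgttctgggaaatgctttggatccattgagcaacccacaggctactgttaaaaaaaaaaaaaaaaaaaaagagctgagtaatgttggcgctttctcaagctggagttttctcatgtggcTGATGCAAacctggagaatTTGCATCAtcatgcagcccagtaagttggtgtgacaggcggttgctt
The matches began 66 and 47 bases before the start, on opposite strands. The motif, which was chosen after the values were seen, occurs in 3.45% of the 32851 promoter stretches in the table. Of the 32 transporter genes with an entry, only Slc7a11 and Slc7a7 held it in this window, and Slc7a7 was not called in any of the 3 supernatant effects. The interferon-stimulated response element, searched as a pair of GAAA runs 2 bases apart, occurred in 2.98% of promoters and in 0 of these 32 genes. The interferon-gamma activated site TTCNNNGAA occurred in 7.02% of promoters and in Slc1a3, Slc7a1, Slc7a11 and Slc38a9. The antioxidant response element TGACNNNGC occurred in 10.2% of promoters and in Slc7a1, Slc7a6, Slc38a2 and Slc43a1. A match is a run of letters and shows no binding, and a window without one says nothing about the factor.

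Slc3a2, the heavy chain that Slc7a5, Slc7a6, Slc7a7, Slc7a8 and Slc7a11 need at the surface, was high in every group. In C57epi.1 its arrays read 12.33, 11.78, 11.40 and 11.40 in media and 12.59, 12.76, 12.77 and 12.64 in supernatant. They did not overlap, and the difference was 0.96 ± 0.14 (adjusted p = 2.05e-05). In macrophages the arrays moved from 12.44, 12.35, 12.23 and 12.33 to 12.88, 12.89, 12.91 and 12.84, again without overlap, by 0.54 ± 0.14 (adjusted p = 0.00893). In Bm12.4 they read 12.11, 11.75, 12.05 and 12.02 in media, and in supernatant 12.43, 12.38 and 12.28 in replicates 1, 3 and 4 with replicate 2 between the first pair. All treated arrays were higher there too, but the difference of 0.39 did not pass (adjusted p = 0.0992). The effect in C57epi.1 was not shown to exceed that in Bm12.4 (difference 0.57, adjusted p = 0.108). The other heavy chain, Slc3a1, was under 6 in every group.

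**Figure D3:**
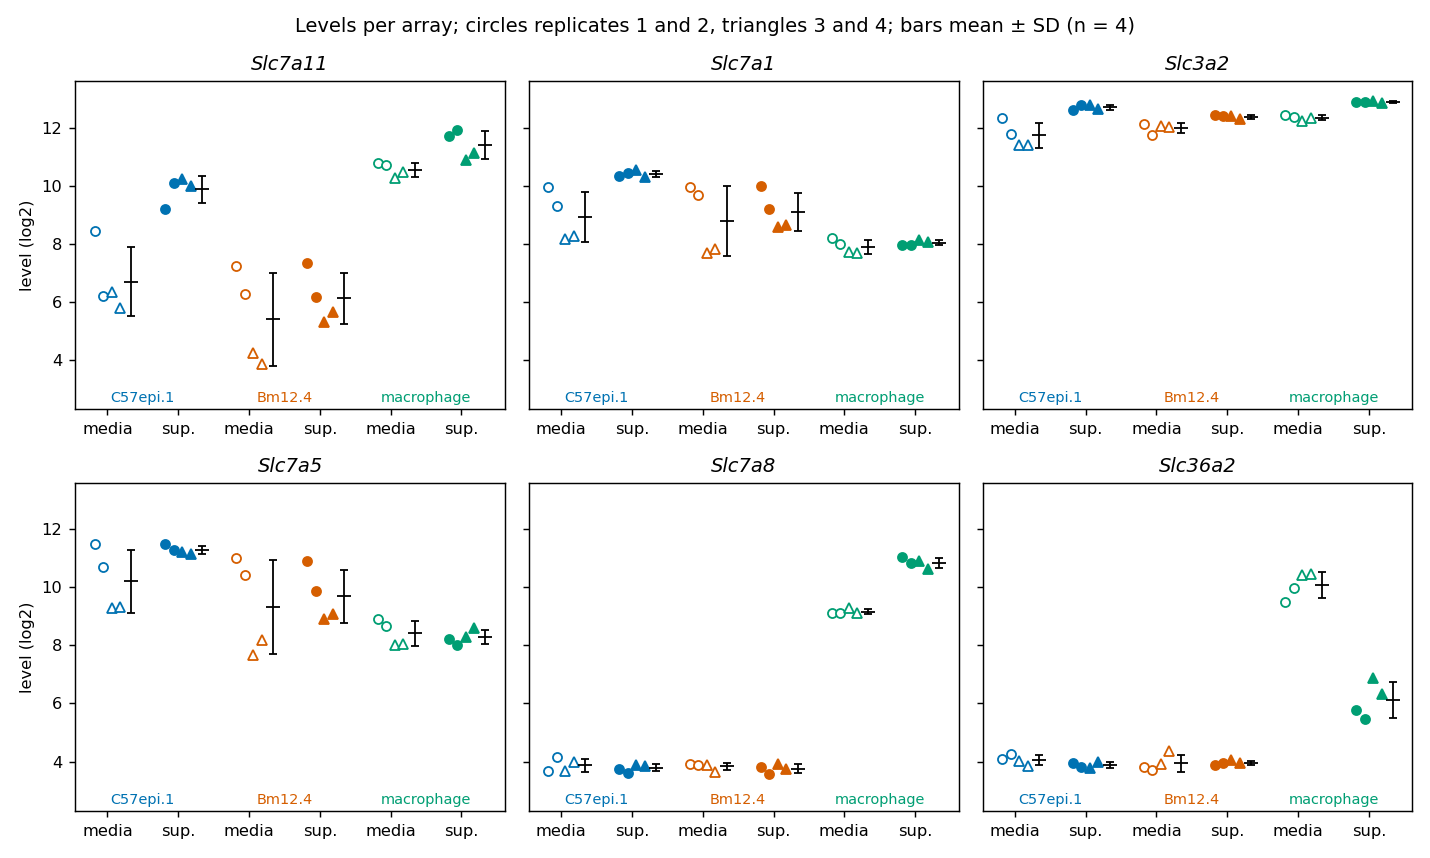
Level (log2) of 6 transporter genes on each array, open symbols for media and filled ones for supernatant (sup.), with the group mean and SD (n = 4) in black. In C57epi.1 the treated arrays of Slc7a11, Slc7a1 and Slc3a2 lie above all media arrays. Slc7a8 and Slc36a2 are near 4 in both lines, and in macrophages they move in opposite directions.

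The light chain Slc7a8, an exchanger of large neutral amino acids, was found at high level in macrophages alone and rose there. Its macrophage arrays read 9.13, 9.12, 9.28 and 9.13 in media and 11.05, 10.82, 10.89 and 10.63 in supernatant. The groups were far apart, by 1.68 ± 0.11 (3.21-fold; adjusted p = 1.03e-10). In the lines every array lay between 3.56 and 4.14, with differences of -0.09 in C57epi.1 and -0.07 in Bm12.4 that did not pass. The test of the difference in effect, both lines minus macrophages, gave -1.76 ± 0.14 (adjusted p = 4.33e-09). Both lines were under 6, so a fall in them could not be seen. Macrophages stood at least 8.97-fold above the lines in media (measured log2 difference -5.32 ± 0.10; adjusted p = 1.31e-22) and at least 28.8-fold in supernatant (-7.08; adjusted p = 6.23e-25).

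Slc7a5, the other large neutral exchanger and the main leucine carrier of dividing cells, was high in the lines and varied widely among their untreated arrays. C57epi.1 read 11.50, 10.69, 9.29 and 9.33 in media and 11.48, 11.27, 11.22 and 11.16 in supernatant. Bm12.4 read 11.01, 10.41, 7.68 and 8.19 in media and 10.91, 9.88, 8.91 and 9.09 in supernatant. In both lines replicates 3 and 4 in media were the low arrays, and the treated arrays overlapped the media arrays. The supernatant differences, 1.08 ± 0.59 in C57epi.1 (adjusted p = 0.243) and 0.38 ± 0.59 in Bm12.4 (adjusted p = 0.818), did not pass. Macrophages read 8.91, 8.66, 8.02 and 8.06 in media and 8.21, 8.02, 8.30 and 8.60 in supernatant, with overlap. The lines stood above macrophages by 1.35 in media (adjusted p = 0.0327) and by 2.21 in supernatant (4.62-fold; adjusted p = 0.000806). The media difference failed to pass without any 1 of replicates 1 and 2 of either line in media, or without macrophage media replicate 3 or 4 (adjusted p up to 0.104 over all settings tried).

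The 2 exchangers of cationic for neutral amino acids ran in opposite directions between the kinds of cell. In media Slc7a6 was at 7.36 ± 0.13 in macrophages (SD, n = 4), against 9.61 ± 0.19 in C57epi.1 and 9.64 ± 0.08 in the other line. The lines were higher by 2.27 ± 0.10 (4.83-fold; adjusted p = 1.9e-15). Slc7a7 in media was at 8.01 ± 0.16 in macrophages, 5.49 ± 0.52 in C57epi.1 and 5.00 ± 0.64 in Bm12.4. The lines, both under 6, were lower by at least 4.03-fold (measured log2 difference -2.77 ± 0.21; adjusted p = 7.85e-11), and no array of a line reached a macrophage array. In supernatant Slc7a6 fell in Bm12.4, from 9.72, 9.59, 9.70 and 9.55 to 9.33, 9.11, 9.07 and 9.19, a difference of -0.47 ± 0.11 without overlap (adjusted p = 0.00948). In macrophages it fell from 7.43, 7.43, 7.17 and 7.39 to 6.73, 6.87, 7.19 and 6.78, by -0.46 ± 0.11, with treated replicate 3 above media replicate 3 (adjusted p = 0.00604). In C57epi.1 its difference was -0.11 and did not pass. Slc7a7 did not pass in any of the 3 (differences of -0.13, -0.69 and -0.18; adjusted p = 0.807, 0.094 and 0.785).

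Slc7a1, the main carrier of arginine and lysine, rose in C57epi.1. Its arrays there read 9.95, 9.31, 8.16 and 8.26 in media and 10.34, 10.45, 10.52 and 10.28 in supernatant. Treated arrays did not overlap media arrays, and media replicates 3 and 4 were the lowest. The difference was 1.48 ± 0.44 (2.78-fold; adjusted p = 0.0184). It was 0.77 (adjusted p = 0.0632) with replicates 1 and 2 alone and 2.19 with replicates 3 and 4 alone. It also failed to pass without media replicate 3 or without media replicate 4 (adjusted p up to 0.0816 over all settings tried). In Bm12.4 the gene read 9.96, 9.69, 7.67 and 7.82 in media and 9.98, 9.18, 8.56 and 8.65 in supernatant, overlapping, with a difference of 0.31 (adjusted p = 0.792). Macrophages read 8.18, 7.99, 7.73 and 7.67 in media and 7.94, 7.97, 8.14 and 8.07 in supernatant, with overlap. In supernatant C57epi.1 lay 1.31 above Bm12.4 (adjusted p = 0.0251), a call lost without Bm12.4 supernatant replicate 3 or 4 or C57epi.1 supernatant replicate 2 or 3. Of the other cationic carriers of this family measured here, Slc7a3, Slc7a4 and Slc7a14 were under 6 in every group.

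Of the Slc1 exchangers of small neutral amino acids, Slc1a4 parted the kinds of cell and Slc1a5 did not. Slc1a4 read 9.10, 7.88, 8.38 and 8.38 in C57epi.1, 7.52, 7.35, 6.12 and 6.37 in Bm12.4, and 5.81, 5.81, 5.20 and 5.43 in macrophages, all in media. The 3 kinds did not overlap. C57epi.1 exceeded Bm12.4 by 1.60 ± 0.28 (3.02-fold; adjusted p = 0.000125), and the lines exceeded macrophages, which were under 6, by at least 3.11-fold (measured log2 difference 2.08 ± 0.24; adjusted p = 1.38e-07). Slc1a5, the main glutamine importer of many growing cells, was at 9.08 ± 0.53, 9.52 ± 0.29 and 9.40 ± 0.39 in C57epi.1, Bm12.4 and macrophages in media (SD, n = 4), with overlapping arrays. Neither gene passed in any supernatant effect. The nearest was Slc1a5 in C57epi.1, which read 9.77, 9.23, 8.64 and 8.69 in media and 9.82, 9.57, 9.63 and 9.53 in supernatant, a difference of 0.56 (adjusted p = 0.0669).

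Among the 5 glutamate and aspartate carriers only Slc1a3 reached a group mean of 6, in untreated C57epi.1. Its arrays there read 5.54, 5.12, 7.04 and 7.12 in media and 4.72, 5.36, 5.01 and 5.50 in supernatant. Media replicates 3 and 4 were the high arrays, and replicates 1 and 2 overlapped the treated ones. The call of -1.06 ± 0.30 (adjusted p = 0.0135) rested on those 2 arrays: the difference was -0.29 with replicates 1 and 2 alone (adjusted p = 0.417) and -1.82 with replicates 3 and 4 alone. It was also lost without either of them, and without supernatant replicate 1. In media C57epi.1 exceeded Bm12.4, which read 4.26, 4.26, 4.38 and 4.32, by a measured 1.90 ± 0.30 (adjusted p = 2.93e-05). As Bm12.4 was under 6, the fold that can be given is only at least 1.15. Slc1a2 was called higher in treated macrophages (0.42, adjusted p = 0.0249) between group means of 4.47 and 4.88, both dim. That call was lost without macrophage media replicate 1 or 4 or supernatant replicate 1 or 2, and with replicates 3 and 4 alone the difference was 0.20 (adjusted p = 0.45).

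Of the 4 Slc36 carriers, Slc36a1, Slc36a2 and Slc36a4 were higher in macrophages than in the lines and fell there with supernatant, and Slc36a3 was dim throughout. The median difference of the 4 in media, lines minus macrophages, was -2.65, beside -0.26 to 0.99 in the other roles. Most of those other medians take in genes under 6 in every group. The other roles also hold genes far lower in the lines, such as Slc7a8 and Slc43a2, beside genes higher there, such as Slc7a6. Slc36a2, a carrier of proline and glycine, read 9.49, 9.96, 10.41 and 10.47 in macrophages in media and 5.78, 5.45, 6.87 and 6.32 in supernatant. The groups were separated by more than 2 units, and the difference was -3.98 ± 0.23 (15.8-fold, adjusted p = 1.35e-11). The treated mean was close to 6, with treated replicates 1 and 2 under it. In the lines all arrays lay between 3.70 and 4.37, with differences of -0.18 and 0.01. The test of the difference in effect, both lines minus macrophages, gave 3.89 ± 0.28 (adjusted p = 2.05e-09). The lines were under 6 in both conditions, so a fall in them could not be seen. In media macrophages stood at least 16.9-fold above them (measured log2 difference -6.08 ± 0.20; adjusted p = 1.26e-17). In supernatant, with 2 macrophage arrays under 6 as well, the measured difference was -2.19 and no fold is given.

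Slc36a1, a lysosomal and surface carrier, read 8.41, 8.92, 9.10 and 8.87 in macrophages in media and 7.89, 7.50, 8.36 and 8.72 in supernatant. The groups overlapped, and the difference of -0.71 ± 0.21 (adjusted p = 0.0264) was lost without macrophage media replicate 2, 3 or 4 or supernatant replicate 1 or 2. Slc36a4, a high-affinity carrier of proline and tryptophan, fell in all 3 kinds of cell without overlap. It went from 8.20 ± 0.24 to 7.50 ± 0.12 in C57epi.1, a difference of -0.70 ± 0.11 (adjusted p = 3.79e-05). In Bm12.4 it went from 8.10 ± 0.13 to 7.67 ± 0.15, a difference of -0.44 ± 0.11 (adjusted p = 0.00972) that was -0.24 with replicates 1 and 2 alone (adjusted p = 0.351). In macrophages it went from 10.86 ± 0.09 to 10.32 ± 0.05, a difference of -0.55 ± 0.11 (adjusted p = 0.000672). No difference between these effects passed: C57epi.1 minus Bm12.4 gave -0.26 ± 0.15 (adjusted p = 0.422), and the lines minus macrophages -0.02 ± 0.13 (adjusted p = 0.962).

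Of the sodium-coupled carriers, Slc38a2 fell in all 3 kinds of cell, while Slc38a1 told the lines apart. Slc38a2, a glutamine and alanine carrier that is known to rise when amino acids are withdrawn, read 12.26, 12.24, 12.17 and 12.18 in C57epi.1 in media and 11.64, 11.65, 11.60 and 11.60 in supernatant. That fall of -0.59 ± 0.10 (1.51-fold; adjusted p = 9.29e-05) left no overlap. In Bm12.4 it went from 11.77, 11.42, 11.59 and 11.49 to 11.36, 10.98, 11.18 and 10.90, by -0.46 ± 0.10 (adjusted p = 0.00248), and in macrophages from 10.46, 10.37, 10.32 and 10.19 to 9.73, 9.75, 10.00 and 9.73, by -0.53 ± 0.10 (adjusted p = 0.000334). All treated arrays lay below all media arrays of their kind. The Bm12.4 call was lost when the arrays of that line were fitted alone (adjusted p = 0.0944) or with replicates 1 and 2 alone (adjusted p = 0.106), and the macrophage call with replicates 3 and 4 alone (adjusted p = 0.0612). No difference between these effects passed: C57epi.1 minus Bm12.4 gave -0.13 ± 0.14 (adjusted p = 0.753), and the lines minus macrophages 0.01 ± 0.12 (adjusted p = 0.988). The lines stood above macrophages by 1.56 in media (2.94-fold; adjusted p = 1.32e-13).

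Slc38a1, the related glutamine carrier, read 9.73, 9.52, 8.39 and 8.38 in C57epi.1 in media and 3.77, 4.11, 3.79 and 3.68 in Bm12.4. Bm12.4 was thus at levels treated as background, and C57epi.1 stood at least 8.03-fold above it (measured log2 difference 5.17 ± 0.21; adjusted p = 5.03e-15). In supernatant the bound was 12.5-fold (measured difference 5.61; adjusted p = 1.15e-15). Macrophages, at 9.02, 8.99, 8.84 and 8.87 in media, lay within the range of C57epi.1. A second probe set for the gene also had Bm12.4 far below the rest, with media means of 7.64 ± 0.20 in macrophages, 7.38 ± 0.73 in C57epi.1 and 3.77 ± 0.39 in Bm12.4. The supernatant rise in C57epi.1, 0.64 ± 0.21 (adjusted p = 0.0337), was less secure. Its treated arrays, 9.70, 9.65, 9.71 and 9.50, overlapped the media arrays, the second probe set went from 7.38 to 7.01, and the mean of both probe sets gave 0.13 (adjusted p = 0.767). The call was also lost without C57epi.1 media replicate 3 or 4 or supernatant replicate 1, 2 or 3.

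Slc38a6, Slc38a7 and Slc38a9 were all higher in macrophages. In media the lines lay below them by -2.68 ± 0.14 for Slc38a6 (6.41-fold; adjusted p = 8.91e-14). For Slc38a7, which exports glutamine and asparagine from lysosomes, the difference was -1.96 ± 0.18 (3.88-fold; adjusted p = 3.75e-09), and for Slc38a9 it was -2.14 ± 0.16 (4.40-fold; adjusted p = 4.99e-11). No array of a line reached a macrophage array in these 3. A second probe set for Slc38a9 was also highest in macrophages in media, by less. It read 6.59 there, with C57epi.1 (5.37) and Bm12.4 (5.08) under 6. In supernatant Slc38a6 fell in macrophages, from 8.81, 8.81, 9.04 and 9.18 to 8.0, 8.02, 8.43 and 8.20, by -0.80 ± 0.16 without overlap (adjusted p = 0.00118). Slc38a7 and Slc38a9 did not pass in any kind of cell. Slc38a10 had means from 8.54 to 8.90 over the 6 groups, and its one call was a lower level in the lines in supernatant (-0.26, adjusted p = 0.0133).

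Slc43a2, a facilitated carrier of large neutral amino acids, and Slc43a3, which is best known as a purine nucleobase carrier, had unlike patterns. Slc43a2 read 9.65, 9.98, 10.07 and 9.99 in macrophages in media. The lines read between 4.76 and 6.02 there, with both group means under 6, so macrophages stood at least 15.2-fold above them (measured log2 difference -4.38 ± 0.18; adjusted p = 7.73e-16). In supernatant it read 9.22, 9.51, 9.39 and 9.18 in macrophages, all below the media arrays, but the difference of -0.60 did not pass (adjusted p = 0.062). The call in C57epi.1 (-0.67, adjusted p = 0.0232) lay between means of 5.42 and 4.75, with overlapping arrays, and was -0.27 with replicates 1 and 2 alone (adjusted p = 0.523). It was also lost without media replicate 3 or 4 or supernatant replicate 1, 2 or 3. Slc43a3 was higher in Bm12.4, at 11.25, 11.07, 11.24 and 11.19 in media, than in C57epi.1, at 9.08, 9.05, 8.08 and 8.25. C57epi.1 minus Bm12.4 was -2.57 ± 0.17 (5.95-fold; adjusted p = 3.38e-11). In supernatant C57epi.1 read 9.43, 9.69, 9.57 and 9.46, a rise of 0.92 ± 0.17 (adjusted p = 0.000342). Macrophages went from 9.28, 9.17, 8.81 and 9.13 to 9.70, 9.96, 10.01 and 9.81, a rise of 0.77 ± 0.17 (adjusted p = 0.0025), and neither kind overlapped. All treated Bm12.4 arrays were also above its media arrays, by 0.38, which did not pass (adjusted p = 0.23).

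Between the kinds of cell in media, Slc7a6, Slc1a4, Slc38a2, Slc7a5, Slc7a1, Slc43a3, Slc1a3 and Slc7a6os were higher in the mean of both lines, and 14, led by Slc36a2, Slc7a8, Slc7a11 and Slc43a2, were lower than in macrophages. The 8 higher are 19% of the 42, beside 24.7% of all genes, and the 14 lower are 33.3% beside 22.4%. Of these calls 11 were lower by at least 2-fold (10.1% of all genes) and 4 higher (9.9% of all genes). In supernatant 7 were higher and 19 lower, 16.7% and 45.2% of the 42 beside 24.3% and 24.4% of all genes. Of those 26 calls, 6 were on genes under 6 in every group, all of them lower. They were Slc1a1, Slc1a2, Slc7a4, Slc36a3, Slc38a3 and Slc38a4. Of the 22 calls in media, 2 were on such dim genes, Slc7a3 and Slc7a4, which were also lower. The median absolute difference in media was 0.48 over the 42 genes and 0.24 over all genes. Those lower in the lines in media included Slc36a1, Slc38a7 and Slc38a9, which were introduced above as lysosomal. Slc38a1 is among them only through Bm12.4, since C57epi.1 lay at the macrophage level. Of the higher genes, Slc43a3 was higher than in macrophages through Bm12.4 alone (11.19 beside 9.10, with C57epi.1 at 8.62) and Slc1a3 through C57epi.1 alone. With Bm12.4 and macrophages under 6 for Slc1a3, the lower bound of its fold was only 1.07. The Slc7a1 call (0.96, adjusted p = 0.0404) was lost without media replicate 1 or 2 of either line or without macrophage media replicate 2, 3 or 4, and with the compared arrays fitted alone (adjusted p up to 0.123). Slc3a2 was lower in the lines by -0.48 in media (adjusted p = 0.00159), which became -0.05 (adjusted p = 0.76) when quantile normalization was applied again. Its -0.35 in supernatant (adjusted p = 0.018) became 0.10 (adjusted p = 0.54).

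Between the lines in media, Slc38a1, Slc1a3, Slc1a4 and Slc38a2 were higher and Slc43a3 lower in C57epi.1. The 4 higher are 9.52% of the 42, beside 12% of all genes, and the 1 lower is 2.38% beside 12.5%. In supernatant 10 were higher and 3 lower, 23.8% and 7.14% beside 14.3% and 15.6% of all genes. At least 2-fold apart were 6 of the higher and 2 of the lower ones, beside 4.49% and 5.49% of all genes, and of these Slc7a7 and Slc43a2 were under 6 in both lines. The genes higher in C57epi.1 in supernatant but not called in media were Slc7a11, Slc7a5, Slc7a1, Slc7a7, Slc7a6os and Slc7a6. Of these the Slc7a5 call was lost in 15 of 34 settings, each leaving out 1 array (adjusted p up to 0.147), and the Slc7a6 call in 6 (up to 0.253). Without C57epi.1 supernatant replicate 2 the 13 calls became 8. Whether the supernatant effect itself differed between the lines was tested, and 1 of the 42 passed, with a larger value in C57epi.1, 2.38% beside 1.99% of all genes. In limma 0 passed the other way, beside 2.04% of all genes, and 2 did at an unadjusted p under 0.05. That gene was Slc7a6os (0.76 ± 0.21, adjusted p = 0.0391), which is no carrier. Its arrays read 7.83, 8.01, 7.27 and 7.43 in media and 8.68, 8.63, 8.51 and 8.33 in supernatant in C57epi.1, and 7.79, 7.86, 7.41, 7.38 and 8.01, 7.83, 7.56, 7.61 in Bm12.4. The call was lost under 13 of the settings tried, among them arrays centred on the median (adjusted p = 0.0748). Between lines and macrophages 4 effects differed. Those of Slc36a2 and Slc36a1 were higher in the lines, 4.76% beside 4.27% of all genes. Those of Slc7a8 and the dim Slc38a4 (-0.51, adjusted p = 0.0241) were lower, 4.76% beside 3.81%. The Slc36a1 difference of 0.87 was lost in 14 of 34 settings, 13 of them leaving out 1 array (adjusted p up to 0.114), and the Slc38a4 one in 5 of 33 (up to 0.147).

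Within the untreated lines, replicates 1 and 2 stood apart from replicates 3 and 4 in many of these genes, as they did in genes at large. The labels name no batch, so this is given as a description with no test. In Bm12.4 in media the mean of replicates 3 and 4 minus that of 1 and 2 was -2.78 for Slc7a5, -2.68 for Slc7a11, -2.08 for Slc7a1 and -1.19 for Slc1a4, and it was 1.08 for Slc7a7 and 1.04 for Slc38a7. In C57epi.1 in media it was -1.78 for Slc7a5, -1.42 for Slc7a1, -1.27 for Slc7a11 and -1.24 for Slc38a1, and 1.75 for Slc1a3. The pairs did not overlap for 45.2% of the 42 genes in C57epi.1 and 61.9% in Bm12.4, beside 52.4% and 62.7% of all genes. The share of the 42 was 52.4% in untreated macrophages (33.2% of all genes) and 42.9% in treated macrophages (41.1%). In treated C57epi.1 and Bm12.4 it was 42.9% and 57.1% (38.4% and 47.9% of all genes). Some genes part 2 arrays from 2 by the order of values alone, so a share is read only beside those of other groups. Over all genes it was 52.4% and 62.7% in the untreated lines and 33.2% to 47.9% in the other groups. Slc38a2, by contrast, differed by -0.08 in untreated C57epi.1 and -0.06 in untreated Bm12.4. Genes of cell division moved the same way, with a median of -0.99 in C57epi.1 and -2.38 in Bm12.4 over 9 genes, as did aminoacyl-tRNA synthetases, with -0.75 and -1.18 over 17 genes. In treated arrays the division genes differed by -0.17 and -0.68. The part that growth of the cultures has in the values of Slc7a5, Slc7a1 and Slc7a11 was not tested.

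**Figure D4:**
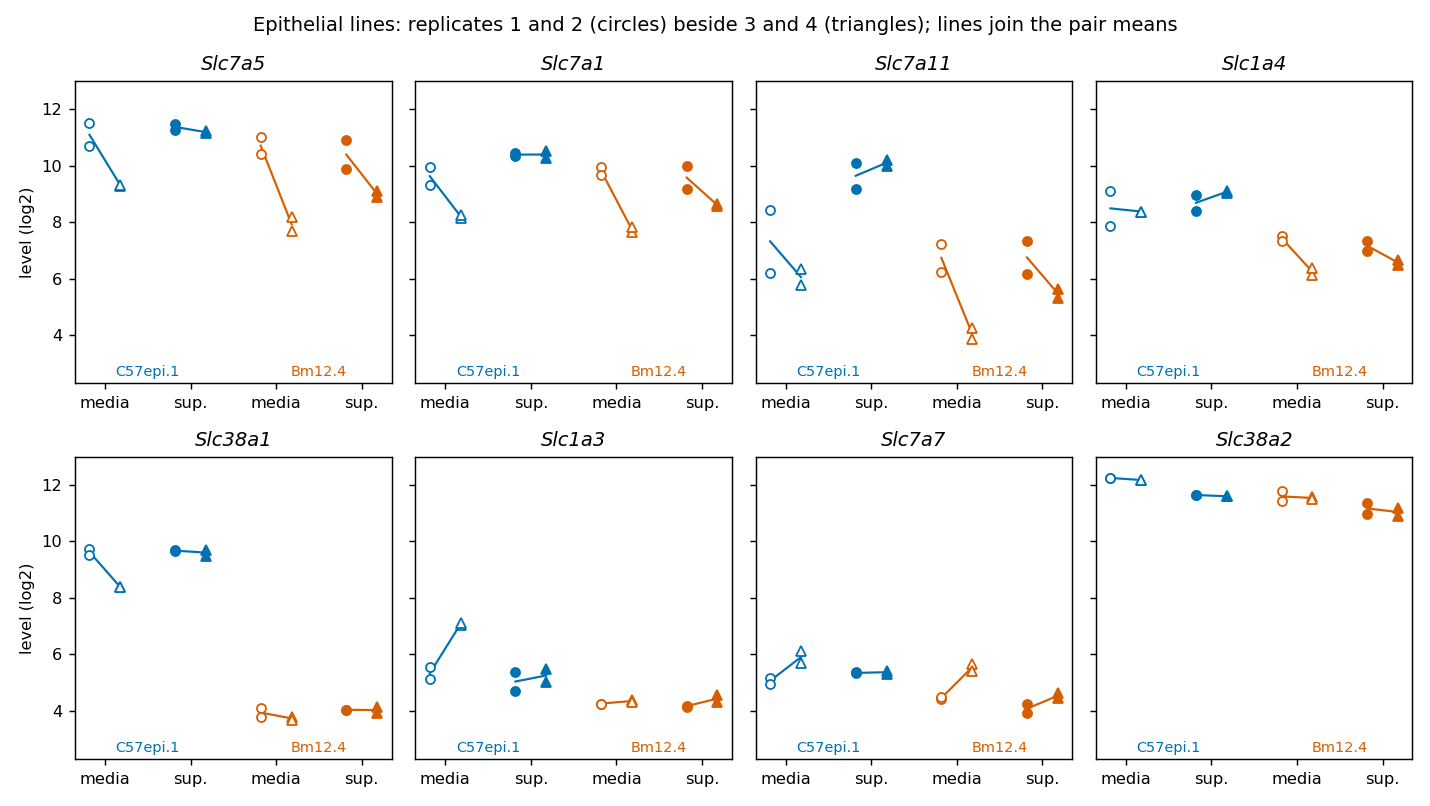
Level (log2) of 8 transporter genes on the arrays of both lines, with replicates 1 and 2 as circles and 3 and 4 as triangles, open for media and filled for supernatant (sup.). In media Slc7a5, Slc7a1 and Slc7a11 are lower in replicates 3 and 4 of both lines, Slc1a3 in C57epi.1 is higher there, and Slc38a2 shows no such step.

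Genes of the pathways that these carriers serve were counted in the same fit, from lists chosen with earlier results of these data known. Of 28 measured genes of the Atf4 pathway, which acts in amino acid shortage and other stress, 14 passed in C57epi.1, all of them higher (50% of the list, beside 8.85% of all genes that rose), with a median difference of 0.90. The largest were Atf3 (3.37), Ddit3 (2.99), Trib3 (2.20) and Nupr1 (2.18), and Atf4 itself rose by 0.98 (adjusted p = 0.0452). Over the list, C57epi.1 replicates 3 and 4 minus replicates 1 and 2 had a median of -0.345 in media and 0.140 in supernatant. No alternative setting was run on the pathway lists, so how their counts depend on single arrays was not tested. In Bm12.4 only Ddit3 (1.65), Nupr1 (1.26) and Atf3 (0.96) rose, 10.7% beside 4.54% of all genes, with a median of -0.02. In macrophages Nupr1 (1.15), Psat1 (0.77) and Stc2 (0.52) rose, 10.7% beside 6.13%, with a median of 0.14. The difference in effect between the lines passed for 5 of the 28 (17.9% beside 1.99% of all genes), all larger in C57epi.1. They were Atf3, Ppp1r15a, Fgf21, Gpt2 and Cebpb.

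Of 17 genes of glutathione metabolism and Nrf2 targets, 9 rose (52.9%, beside 8.85% of all genes) and 1 fell (5.88% beside 10.4%) in C57epi.1. Hmox1 (2.12), Chac1 (1.91), Gclm (1.68) and Srxn1 (1.37) rose most. C57epi.1 replicates 3 and 4 minus replicates 1 and 2 had a median over this list of -0.445 in media and 0.025 in supernatant. In Bm12.4 1 rose, 5.88% beside 4.54% of all genes. In macrophages 3 did (17.6% beside 6.13%), among them Prdx1 (0.76) and Gss (0.75). Of 17 aminoacyl-tRNA synthetases, the enzymes that load amino acids on tRNA, 10 rose (58.8% beside 8.85%) and 1 fell (5.88% beside 10.4%) in C57epi.1. In Bm12.4 2 rose (11.8% beside 4.54%), and in macrophages 3 did (17.6% beside 6.13%). Wars, for tryptophan, rose in all 3 (2.21, 2.40 and 1.64), as did Kars, for lysine (0.67, 0.62 and 0.67). Of 26 genes of amino acid sensing by mTORC1, 16 were lower (61.5%, beside 22.4% of all genes) and 2 higher (7.69% beside 24.7%) in the lines than in macrophages in media, with Fnip2 (-3.99), Rragd (-2.37), Rragc (-1.63) and Tfeb (-1.57) the largest falls. The supernatant effects on that list were 4 up and 4 down in C57epi.1 (15.4% each, beside 8.85% and 10.4% of all genes) and 1 each way in Bm12.4 (3.85%, beside 4.54% and 2.7%). In macrophages 3 passed, all lower (11.5% beside 6.31%), among them Sesn1 (-1.78) and Rragd (-1.12).

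Enzymes and carriers outside the 6 families were also counted. Of 14 enzymes of glutamine and glutamate use, 9 were higher (64.3%, beside 24.7% of all genes) in the lines than in macrophages in media. Lower were 4 (28.6% beside 22.4%). Glul, which makes glutamine, was the lowest at -5.59 and Gfpt2, which uses it for hexosamines, the highest at 4.73. Of 22 other surface carriers of amino acids and peptides, 5 were lower in the lines in media, a share of 22.7% that is near the 22.4% of all genes, and 1 was higher (4.55% beside 24.7%). The lower ones were led by the peptide carrier Slc15a3 (-6.97) and the aromatic amino acid carrier Slc16a10 (-3.11). Slc15a3 rose with supernatant in C57epi.1 (1.95) and in macrophages (0.56), Slc6a9, a glycine carrier, rose in the same kinds (1.65 and 1.27), and Slc6a19, a neutral amino acid carrier, rose in macrophages (1.63). Of 16 lysosomal and mitochondrial carriers, 7 were lower (43.8% beside 22.4%) and 3 higher (18.8% beside 24.7%) in the lines in media. Mfsd12 (-4.37), a lysosomal cysteine importer, led the lower ones. With supernatant 2 of these 16 rose (12.5% beside 8.85%) and 3 fell (18.8% beside 10.4%) in C57epi.1. Bm12.4 had 2 that rose (12.5% beside 4.54%) and 1 that fell (6.25% beside 2.7%). Macrophages had 3 that rose (18.8% beside 6.13%) and 1 that fell (6.25% beside 6.31%). The mitochondrial glutamate carrier Slc25a22 rose in all 3 kinds of cell, by 1.03 in macrophages, 1.36 in C57epi.1 and 0.96 in Bm12.4.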

How the data were processed

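The deposited table holds log2 values with 2 decimals for 28853 probe sets on 24 arrays, which the authors made with GCOS, Partek 6.2 and RMA, per the submitters' processing notes. RMA corrects background, aligns the arrays' distributions and summarises the probes of a set. The order of steps is not given in the sources used here, and no detection calls were used. Each array was labelled from 100 ng of RNA, per the labels' protocols.

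Probe sets with exactly 1 symbol in the platform annotation were kept (21789; 1621 had several symbols and 5443 had none), and the one with the highest mean stood for its gene. All 42 transporter genes matched RefSeq (GRCm38.p6) by gene identifier and symbol, and 2 of them, Slc38a1 and Slc38a9, had more than 1 such probe set. The members and all gene lists were chosen with earlier results of these data known. All 9 comparisons came from 1 limma model (limma 3.58.1, statmod 1.5.0, R 4.3.3; lmFit and eBayes, a mean per group, 18 residual and 3.62 prior degrees of freedom) over 19938 genes, tested on simulated data first. P-values were two-sided and Benjamini-Hochberg adjusted over all these genes, and a call is an adjusted p under 0.05. Genes called at least 2-fold in a supernatant effect or a difference in effect were described in detail, with array values, means or differences. So were the 5 largest calls each way between lines and macrophages and between the lines in media. Slc7a11, Slc3a2, Slc7a5, Slc1a5, Slc38a2, Slc7a1, Slc7a7 and Slc7a8 were always described. Up to 4 of the largest calls of other lists are named. The number of arrays, 4 per group, limits the precision.

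Samples of the same replicate number deviated together (every correlation above 0.1) in the Bm12.4 effect (0.226 to 0.683) and between the lines in media (0.512 to 0.625), from the data and not from the labels. Samples of other numbers reached similar correlations (highest per replicate 0.191 to 0.643 and 0.562 to 0.635), so these values do not single out the number. They did not in the C57epi.1 effect (lowest -0.143), the macrophage effect (-0.134) or between the lines in supernatant (0.084). Alternatives covered the replicate number as a block, normalization, array weights, an intensity trend, a filter on dim genes, probe set choice, replicate subsets and leaving out each array.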

Additional observations from a re-analysis of the deposited data

Results flagged for a closer look

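Of 90 groups of 4 arrays checked for 15 genes, 4 held an array far from its other 3, beside about 4.5 that chance alone gives. These were Slc7a6 in macrophages in media (replicate 3, lowest, 7.17), Slc7a8 in Bm12.4 in media (replicate 4, lowest, 3.65), Slc7a8 in macrophages in media (replicate 3, highest, 9.28) and Slc38a2 in treated macrophages (replicate 3, highest, 10.00).

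For 5 genes the test of a difference between supernatant effects passed. The effect in both lines minus that in macrophages was -1.76 for Slc7a8, 3.89 for Slc36a2, 0.87 for Slc36a1 and -0.51 for Slc38a4. Of these the Slc36a1 value did not pass in 14 of 34 settings and the Slc38a4 value in 5 of 33. Slc7a8, Slc36a2 and Slc38a4 were under 6 in the lines, where a fall cannot be seen. The effect in C57epi.1 minus that in Bm12.4 was 0.76 for Slc7a6os.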

How the results depend on the processing

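Of 95 calls on the 42 genes, 63 kept their direction and passed under every alternative that could be run. With the replicate block all 95 passed, and it changed the count of calls by over 1.5 times only for the difference in effect between the lines (1 to 2). Fitting only the arrays compared gave 7 calls in C57epi.1 (11 in the full fit), 1 in Bm12.4 (3) and 0 for the difference between the lines' effects (1). With replicates 1 and 2 alone these counts were 6, 0 and 0, and with replicates 3 and 4 alone 17, 7 and 10, with 11 between the lines in media (5) and 8 for the difference between lines and macrophages in effect (4). Array weights, whose estimation gave a convergence warning, raised these last 2 to 8 and 7 and the difference between the lines' effects to 9, and median centring took that one to 0. Slc3a2 in supernatant, lines minus macrophages, reversed to 0.10 when quantile normalization was applied again, and the share of called genes that were higher in the Bm12.4 effect, over all genes, went from 62.7% to 49.9%. The causes were not tested.

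Leaving out 1 array gave 6 to 12 calls in C57epi.1, 3 to 4 in Bm12.4 and 8 to 11 in macrophages. It gave 20 to 22 between lines and macrophages in media, 25 to 27 in supernatant, 5 to 8 between the lines in media and 8 to 14 in supernatant. For the differences in effect it gave 2 to 6 (lines and macrophages) and 0 to 3 (between the lines). The extremes came without C57epi.1 media replicate 1 (8 between the lines in media), C57epi.1 supernatant replicate 2 (8 between the lines in supernatant) and macrophage supernatant replicate 1 (2). Levels under the chosen cut of 6 were treated as not told from background, so differences between dim genes are limited by signal.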

Other observations

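Enzymes that break down branched-chain amino acids and tryptophan changed in more than 1 kind of cell. Ivd, of leucine breakdown, fell with supernatant in each of the 3 kinds, with differences of -0.74 in macrophages, -1.07 in C57epi.1 and -0.55 in Bm12.4. In C57epi.1 Bckdha (-1.64) and Bckdk (-0.79), of the branched-chain keto acid dehydrogenase step, fell too, while Ido1 (1.56) and Ido2 (1.28), which break down tryptophan, rose. Ido1 also rose in Bm12.4 (0.75). Over the list of 13, 3 genes rose (23.1% beside 8.85% of all genes) and 4 fell (30.8% beside 10.4%) in C57epi.1. In Bm12.4 2 rose (15.4% beside 4.54%) and 1 fell (7.69% beside 2.7%). In macrophages 2 rose (15.4% beside 6.13%) and 1 fell (7.69% beside 6.31%). In media Kynu, a later enzyme of the tryptophan route, was lower in the lines than in macrophages by a log2 difference of -5.04.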
